A study of Mus musculus with 8 samples.

Results

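Neutrophil granule genes were followed in the molars of Wdr72-deficient and wild-type mouse pups. The 10 genes were chosen by name as S100a8, S100a9, Mpo, Elane, Camp, Ngp, Ltf, Lcn2, Mmp8 and Retnlg, and each matched 1 of the 54532 genes of the deposited count table. The KO group held 4 libraries (KO 1, 3, 4 and 5) from mice labelled wdr72-/- on C57BL/6, a line bought from the UC Davis Mouse Biology Center, and the WT group held 4 libraries (WT 2, 3, 4 and 5) from C57BL/6 wild-type mice kept in the same facility. The pups carried no treatment, and their age is given as postnatal day 12 in the labels and as day 13 in the dissection protocol. RNA came from dissected first molars without their pulp, homogenised whole, and the labels name enamel organ and ameloblasts (enamel-building epithelium) as the source. The deleted stretch of Wdr72, whether WT pups were littermates of KO pups, and whether a library is 1 pup or a pool are not given in the labels. P-values therefore measure only the spread between these libraries.

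Neutrophils are short-lived phagocytes made in bone marrow, and they store most of their antimicrobial proteins in granules that form in sequence as the cell matures. Primary granules, filled in promyelocytes, hold myeloperoxidase and serine proteases such as elastase. Secondary and tertiary granules, filled later, hold lactoferrin, lipocalin 2, cathelicidin, neutrophilic granule protein and collagenase, while S100A8 and S100A9 fill the cytosol. The transcription of primary granule genes is known to cease before that of secondary granule genes begins, and C/EBP factors and PU.1 are known regulators of many of them. Some of the members are not restricted to neutrophils: S100a8, S100a9, Lcn2 and Ltf are also made by epithelia.

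The promoter sequences of 4 members are shown. S100a9, Retnlg and Mmp8 were the members whose window lay outside the deposited gene, and Mmp8 followed the other members least. Ltf held both a C/EBP and a PU.1 match, as Lcn2 and Mmp8 also did. Each sequence is the 250 bases before the RefSeq start on GRCm38.p6, on the gene's own strand. Capitals mark matches, read on both strands, to the motif letters of C/EBP factors (TTGCNNAA) and of PU.1 (GAGGAA). The TATA box (TATAAA) was searched too, and the motifs did not overlap in these windows.
S100a9, chr3:90695722-90695971, minus strand: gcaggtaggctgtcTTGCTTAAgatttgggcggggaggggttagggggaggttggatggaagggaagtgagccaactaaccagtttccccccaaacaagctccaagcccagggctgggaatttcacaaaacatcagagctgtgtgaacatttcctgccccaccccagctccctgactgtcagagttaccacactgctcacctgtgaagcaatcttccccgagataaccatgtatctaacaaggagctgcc
Retnlg, chr16:48872358-48872607, plus strand: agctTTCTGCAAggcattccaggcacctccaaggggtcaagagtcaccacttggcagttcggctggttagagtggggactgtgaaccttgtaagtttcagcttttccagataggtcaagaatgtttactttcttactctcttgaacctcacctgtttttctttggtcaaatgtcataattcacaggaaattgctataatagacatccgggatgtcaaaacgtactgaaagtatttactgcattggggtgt
Ltf, chr9:111019042-111019291, plus strand: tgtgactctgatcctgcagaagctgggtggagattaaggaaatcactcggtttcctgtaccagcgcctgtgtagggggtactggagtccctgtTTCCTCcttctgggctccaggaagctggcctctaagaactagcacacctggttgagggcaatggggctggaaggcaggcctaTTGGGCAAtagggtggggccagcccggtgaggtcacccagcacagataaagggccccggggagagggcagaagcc
Mmp8, chr9:7558179-7558428, plus strand: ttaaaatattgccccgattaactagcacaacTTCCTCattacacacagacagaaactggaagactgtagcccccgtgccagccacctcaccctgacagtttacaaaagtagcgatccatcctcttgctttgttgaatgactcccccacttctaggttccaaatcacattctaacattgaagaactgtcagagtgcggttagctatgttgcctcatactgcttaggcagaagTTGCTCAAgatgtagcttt

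All 10 members had a window, and 6 of them (S100a9, Ngp, Ltf, Lcn2, Mmp8 and Retnlg) held TTGCNNAA, a match found in 9.56% of all 32851 windows of the same length. GAGGAA was found in 6 members (S100a8, Mpo, Elane, Ltf, Lcn2 and Mmp8) and in 23.3% of all windows. TATAAA was found in S100a8 alone among the members, 30 bases before its start, and in 12.4% of all windows. The C/EBP match began 19 bases before the start in Mmp8, 75 in Ltf, 216 in Lcn2, 236 in S100a9 and 246 in Retnlg, and Ngp had matches at 138 and 11 bases. Camp held no match to any of these letters. Both primary granule genes held GAGGAA, Elane at 85 bases and Mpo at 247 and 224 bases, and neither held TTGCNNAA. Positions count from the RefSeq start, and some windows reached into the gene as deposited. The reach was 250 bases in Lcn2, 203 in Mpo and 161 in Camp. It was 93 bases in S100a8, 65 in Elane, 61 in Ngp and 21 in Ltf. These are matches of letters only.

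The libraries held 17084475 to 21887462 reads, and the 10 members together took 0.0159% to 0.0387% of the reads in KO libraries and 0.0138% to 0.0384% in WT libraries. Wdr72, the targeted gene, had 102, 37.8, 24.9 and 15.8 CPM in KO 1, 3, 4 and 5, against 173, 245, 327 and 227 CPM in WT 2, 3, 4 and 5, so every KO library was lower, KO 1 least so. CPM are counts scaled to a common library size with TMM factors. Its log2 fold change, KO minus WT, was -2.43 (SE 0.47, adjusted p = 0.0803 in edgeR), and the exact permutation p was 0.0286. The summed CPM of 8 ameloblast markers was 59700 to 81200 in KO and 53400 to 97700 in WT, and that of 5 odontoblast markers (Dspp, Dmp1, Col1a1, Col1a2 and Phex) was 47500 to 80500 in KO and 38900 to 77000 in WT. Markers of dentin-forming odontoblasts were thus plentiful in all 8 libraries, beside those of the labelled ameloblasts. Of 6 markers that define neutrophils, all 6 passed the filter on low counts, with a summed level of 10 to 21.6 CPM in KO and 8.7 to 20.8 CPM in WT. Ly6g, the classical surface marker of mouse neutrophils, had 92 reads over the 8 libraries.

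All 10 members were detected in every library and all 10 passed the filter, and none passed the test between KO and WT molars. By edgeR's quasi-likelihood test with Benjamini-Hochberg adjustment over all genes, 0 of 10 passed an adjusted p of 0.05, where 5 of 16205 genes (0.0309%) did. At an unadjusted p of 0.05 the count was 0 of 10, against 15.7% of all genes, and by DESeq2 and by limma voom with sample quality weights 0 of 10 passed the adjusted threshold. Over all genes DESeq2 called 464 of 16203 and limma voom with those weights 1065 of 16205, many more than edgeR. In 0 of 10 members did the 4 KO values lie apart from the 4 WT values, against 10.9% of all genes. The members varied widely within each group: WT 4 and KO 1 held the highest levels and WT 5 and KO 4 the lowest, so that libraries of the same genotype differed by more than the group means.

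**Figure D1:**
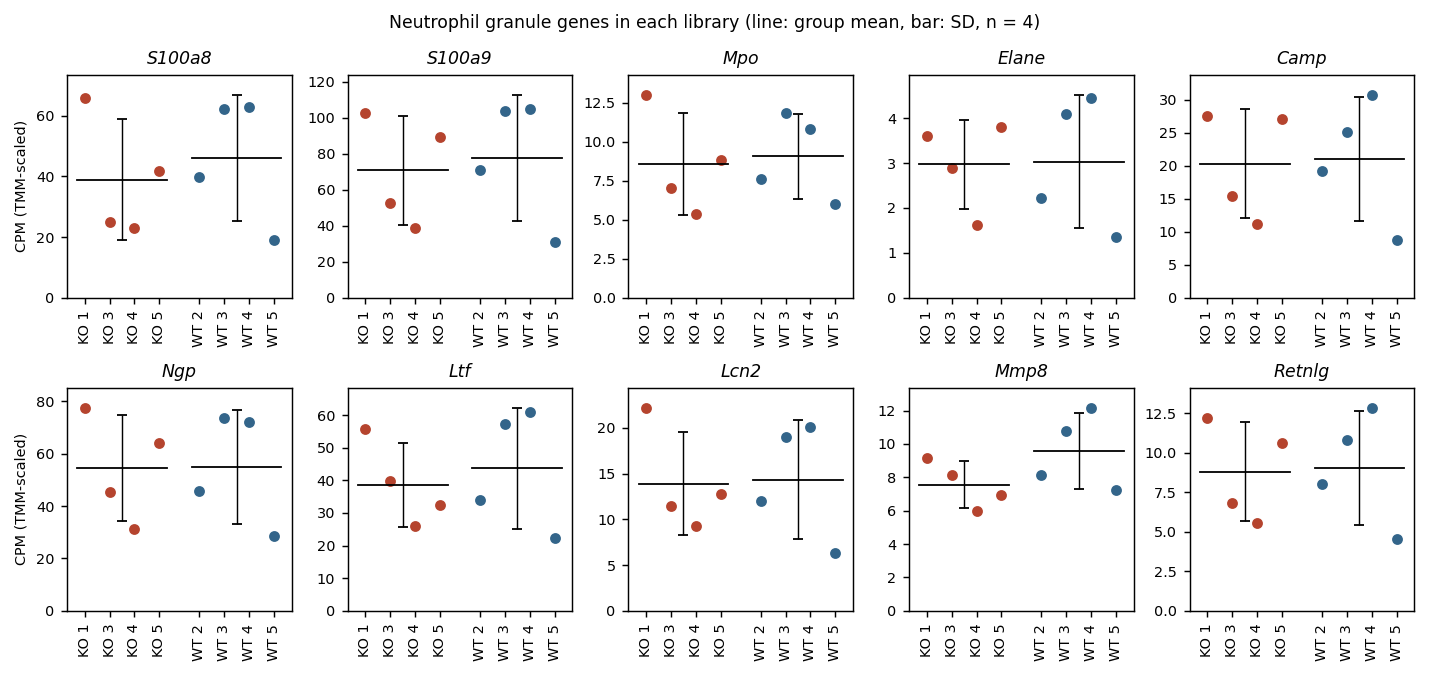
Level of each neutrophil granule gene in CPM (vertical axes from 0) in the 4 KO libraries (red) and the 4 WT libraries (blue), with lines at the group means and bars for the SD. The groups overlap in all 10 genes, and KO 1, WT 3 and WT 4 are the 3 highest libraries in 8 of them.

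S100a8 and S100a9 encode the subunits of calprotectin, a calcium- and metal-binding alarmin of the neutrophil cytosol, and lie close together on chromosome 3 (90668978 to 90670035 and 90692632 to 90695721 on GRCm38). S100a8 was at 66.0, 25, 23 and 41.9 CPM in KO 1, 3, 4 and 5, against 39.9, 62.4, 62.9 and 19.2 CPM in WT 2, 3, 4 and 5. The groups overlapped over nearly their whole range, with KO 1 highest and WT 5 lowest. The means were 39.0 ± 19.9 CPM in KO and 46.1 ± 20.9 CPM in WT (SD, n = 4 each), and the log2 fold change, KO minus WT, was -0.25 (SE 0.38, adjusted p = 0.769 in edgeR). S100a9, the most abundant member, was at 103, 52.4, 38.7 and 89.0 CPM in the KO libraries, against 71.2, 104, 105 and 30.9 CPM in the WT libraries. Here KO 1, WT 3 and WT 4 were nearly level at the top. Its log2 fold change was -0.14 (SE 0.37, adjusted p = 0.874 in edgeR).

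The primary granule genes, which are transcribed in promyelocytes rather than in mature neutrophils, were present at low levels. Mpo encodes myeloperoxidase, which makes hypochlorous acid, and lies on chromosome 11 (87793581 to 87804413). It was at 13.0, 7.07, 5.34 and 8.84 CPM in KO 1, 3, 4 and 5, against 7.59, 11.8, 10.8 and 5.99 CPM in WT 2, 3, 4 and 5. KO 1 was highest and KO 4 lowest, so that the KO libraries spanned the WT range (log2 fold change -0.090, SE 0.28, adjusted p = 0.895 in edgeR). Elane encodes neutrophil elastase, a serine protease, and lies on chromosome 10 (79886247 to 79888215). It was at 3.61, 2.89, 1.61 and 3.80 CPM in the KO libraries, against 2.22, 4.11, 4.46 and 1.36 CPM in the WT libraries. Its levels rested on 24 reads in WT 5 (95% exact Poisson interval 15.4 to 35.7) and 94 reads in WT 4 (76 to 115), intervals that do not overlap and cover counting error only. The log2 fold change was -0.045 (SE 0.37, adjusted p = 0.964 in edgeR).

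Secondary granule genes were measured from more reads. Camp encodes the mouse cathelicidin, an antimicrobial peptide precursor (chromosome 9, 109847379 to 109849617), and Ngp encodes a related granule protein of the cystatin superfamily (chromosome 9, 110419747 to 110423012). Camp was at 27.6, 15.4, 11.2 and 27.1 CPM in KO 1, 3, 4 and 5, against 19.2, 25.2, 30.8 and 8.76 CPM in WT 2, 3, 4 and 5. Ngp was at 77.4, 45.2, 31.3 and 64.2 CPM in the KO libraries, against 45.7, 73.5, 72.2 and 28.5 CPM in the WT libraries. In both genes KO 1 and KO 5 lay with WT 3 and WT 4 at the top, and KO 4 with WT 5 at the bottom. The group means were nearly level, at 20.3 ± 8.31 CPM in KO and 20.96 ± 9.41 CPM in WT for Camp, and at 54.5 ± 20.4 CPM in KO and 55.0 ± 21.8 CPM in WT for Ngp. The log2 fold change was -0.052 (SE 0.36) for Camp and -0.015 (SE 0.31) for Ngp.

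Ltf encodes lactoferrin, an iron-binding protein (chromosome 9, 111019271 to 111042767), and Lcn2 encodes lipocalin 2, which binds bacterial siderophores (chromosome 2, 32384633 to 32388252). Ltf was at 55.8, 39.9, 26.1 and 32.3 CPM in KO 1, 3, 4 and 5, against 34.0, 57.3, 60.9 and 22.5 CPM in WT 2, 3, 4 and 5. Unlike Camp and Ngp, Ltf was low in KO 5, below KO 3. Lcn2 was at 22.2, 11.5, 9.30 and 12.7 CPM in the KO libraries, against 11.96, 19.0, 20.1 and 6.27 CPM in the WT libraries, and here KO 1 was highest. The log2 fold change was -0.18 (SE 0.30) for Ltf and -0.053 (SE 0.34) for Lcn2. Adjusted p in edgeR was 0.786 for Ltf, 0.953 for Lcn2, 0.955 for Camp and 0.985 for Ngp.

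Mmp8, neutrophil collagenase (chromosome 9, 7558456 to 7568485), behaved least like the others. It was at 9.19, 8.12, 5.99 and 6.92 CPM in KO 1, 3, 4 and 5, against 8.14, 10.8, 12.2 and 7.23 CPM in WT 2, 3, 4 and 5. The 2 highest libraries were WT and the 2 lowest were KO, with overlap between. It had the largest fold change and the smallest p of the 10, at -0.35 on the log2 scale (SE 0.20, unadjusted p = 0.104, adjusted p = 0.399 in edgeR). Retnlg encodes resistin-like gamma, a secreted protein of mouse marrow and neutrophils (chromosome 16, 48872621 to 48874496). It was at 12.2, 6.84, 5.57 and 10.6 CPM in the KO libraries, against 8.03, 10.8, 12.8 and 4.52 CPM in the WT libraries (log2 fold change -0.048, SE 0.31, adjusted p = 0.953 in edgeR), and its libraries fell in nearly the order seen for Camp.

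**Figure D2:**
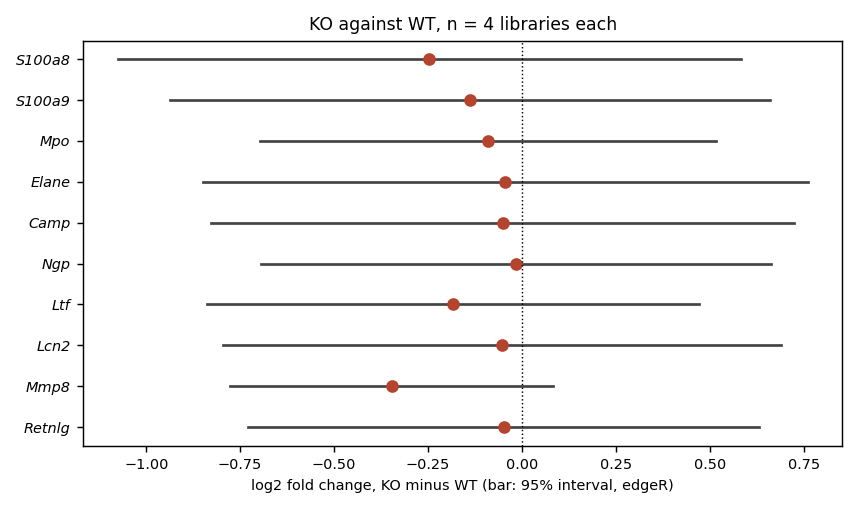
Log2 fold change of each member, KO minus WT (points), with its 95% interval from edgeR (bars) on the horizontal axis. All 10 points lie below 0 and all 10 intervals cross 0, from -1.08 to 0.58 for S100a8 and from -0.78 to 0.083 for Mmp8.

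The log2 fold changes of all 10 members were below 0, with a median of -0.071 on the log2 scale against 0.021 over all 16205 genes, but the members moved as a block and are not independent of each other. The count of negative values fell to 3 of 10 without KO 4, WT 3 or WT 4 and to 6 of 10 without KO 3, so the direction depended on which library was left out. The 95% intervals were wide: the fold change ran from 0.474 to 1.497 for S100a8 and from 0.618 to 1.58 for Ngp, KO over WT. A two-sided exact permutation test of each member, with 70 arrangements of the libraries, gave p between 0.171 for Mmp8 and 1 for Camp, Ngp and Lcn2, where the smallest possible p is 0.0286. Camp, Ngp, Ltf and Mmp8 lie on the same chromosome as Wdr72, at 35.6, 36.1, 36.7 and 66.5 Mb from it.

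The members differed more between libraries than most genes did, given here as a description. The highest library held 2.03 times the lowest for Mmp8 and 3.53 times for Lcn2, with a median of 3.06 over the members against 1.76 over all genes tested. The within-group SD of log2 CPM had a median of 0.637 over the members and 0.246 over all genes, and for S100a8 and S100a9 only 3% and 3.17% of all genes had a larger one. Among the 9645 genes with mean levels between those of Elane and S100a9, from 3.01 to 74.2 CPM, the median SD was 0.212, and the share of genes with a larger SD than the member was 0.425% for S100a8, 0.467% for S100a9, 3.81% for Mpo and 22.2% for Mmp8. The biological coefficient of variation in edgeR had a median of 32.1% over the members, against 16.8% over all genes. Without WT 5, the median within-group SD of the members was 0.483. Only 1.64% of the members' sum of squares on the log2 scale lay between the KO and WT means, and the median share was 0.341% over members against 17% over all genes tested.

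The members varied together across libraries. The first principal component of the centred log2 CPM held 93.3% of the members' sum of squares, and all 10 genes loaded on it with the same sign. Pearson's r between members over the 8 libraries, given as a description, had a median of 0.927 over 45 pairs, from 0.678 for Camp with Mmp8 to 0.993 for Camp with Retnlg. The points share libraries and scaling factors. The mean r with the other 9 members was 0.932 for Ngp, 0.925 for S100a9 and Retnlg, 0.906 for Mpo, 0.894 for Elane and 0.755 for Mmp8. The averaged profile, in log2 units around each gene's mean, was 0.54, -0.22, -0.65 and 0.16 in KO 1, 3, 4 and 5, against -0.092, 0.51, 0.60 and -0.85 in WT 2, 3, 4 and 5. KO 1, WT 3 and WT 4 had all 10 members above their own means, while KO 4 and WT 5 had 0 above. KO 4 and WT 5 were the 2 lowest libraries for 9 members, the exception being Mmp8. In bulk RNA, fewer cells of a type and less RNA per cell cannot be told apart.

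**Figure D3:**
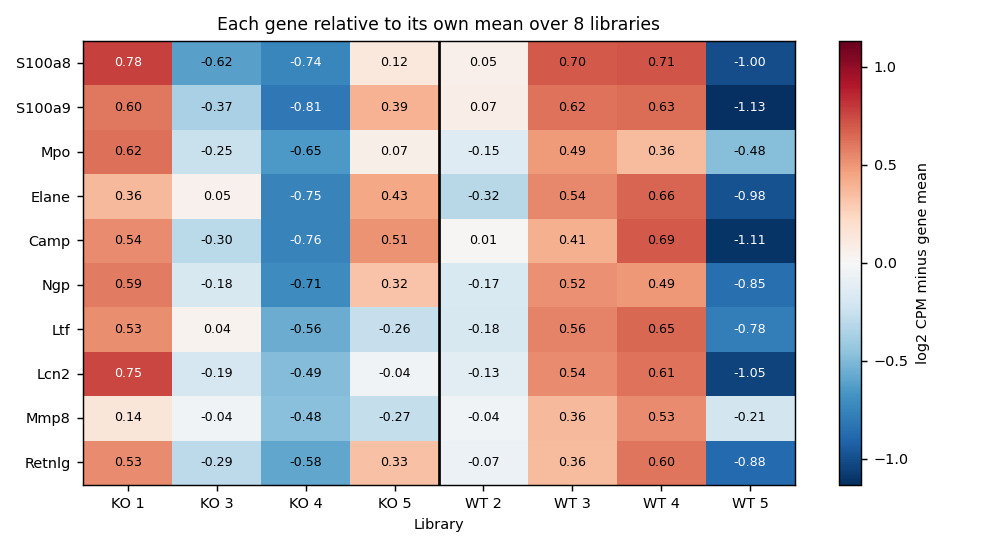
Log2 CPM of each member (rows) in each library (columns, KO left and WT right of the line) minus the gene's mean over 8 libraries, with the values printed and red for above the mean. KO 1, WT 3 and WT 4 are red in every row, and KO 4 and WT 5 are blue in every row.

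Per length of transcript, in CPM per kilobase with the gene lengths of the deposited table, S100a9 was highest at 135 ± 57.8 in KO and 149 ± 67.0 in WT (SD, n = 4 each). S100a8 followed at 56.1 ± 28.7 in KO and 66.4 ± 30.1 in WT, and Ngp at 44.6 ± 16.7 in KO and 45.0 ± 17.9 in WT. The order went on with Camp (mean over 8 libraries 27.2), Retnlg (15), Ltf (11.9), Lcn2 (5.39), Mmp8 (3.53), Elane (3.05) and Mpo (2.57). Within libraries the order was clear for S100a9 over S100a8, Ngp over Camp, Camp over Retnlg and Ltf over Lcn2, each in 8 of 8 libraries. It held in 7 of 8 libraries for S100a8 over Ngp, Retnlg over Ltf, Lcn2 over Mmp8 and Mmp8 over Elane, and in 6 of 8 for Elane over Mpo, so the lowest members were close in level. Primary granule transcripts were thus at the bottom of the order and the cytosolic alarmins at the top.

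Ratios of reads between members within a library do not depend on scaling. The ratio of S100a9 to S100a8 was 1.56, 2.09, 1.68 and 2.13 in KO 1, 3, 4 and 5, against 1.78, 1.66, 1.67 and 1.61 in WT 2, 3, 4 and 5. KO 3 and KO 5 were high, while the WT libraries lay close together. The ratio of Ltf to Ngp was 0.722, 0.883, 0.835 and 0.504 in the KO libraries, against 0.745, 0.779, 0.843 and 0.790 in the WT libraries, with KO 5 below all others. The ratio of Mpo to Ngp, a primary to a secondary granule gene, was 0.168, 0.156, 0.171 and 0.138 in the KO libraries, against 0.166, 0.161, 0.150 and 0.210 in the WT libraries, so it varied by 1.53 times while Ngp itself varied by 2.72 times. The ratio of Retnlg to Ngp was the steadiest, within 1.21 times over the 8 libraries, and that of Mmp8 to Ngp the least steady, within 2.36 times. Over 8 such ratios the exact permutation test, two-sided, gave p values from 0.286 to 0.943 (all 0.943 after Benjamini-Hochberg adjustment).

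**Figure D4:**
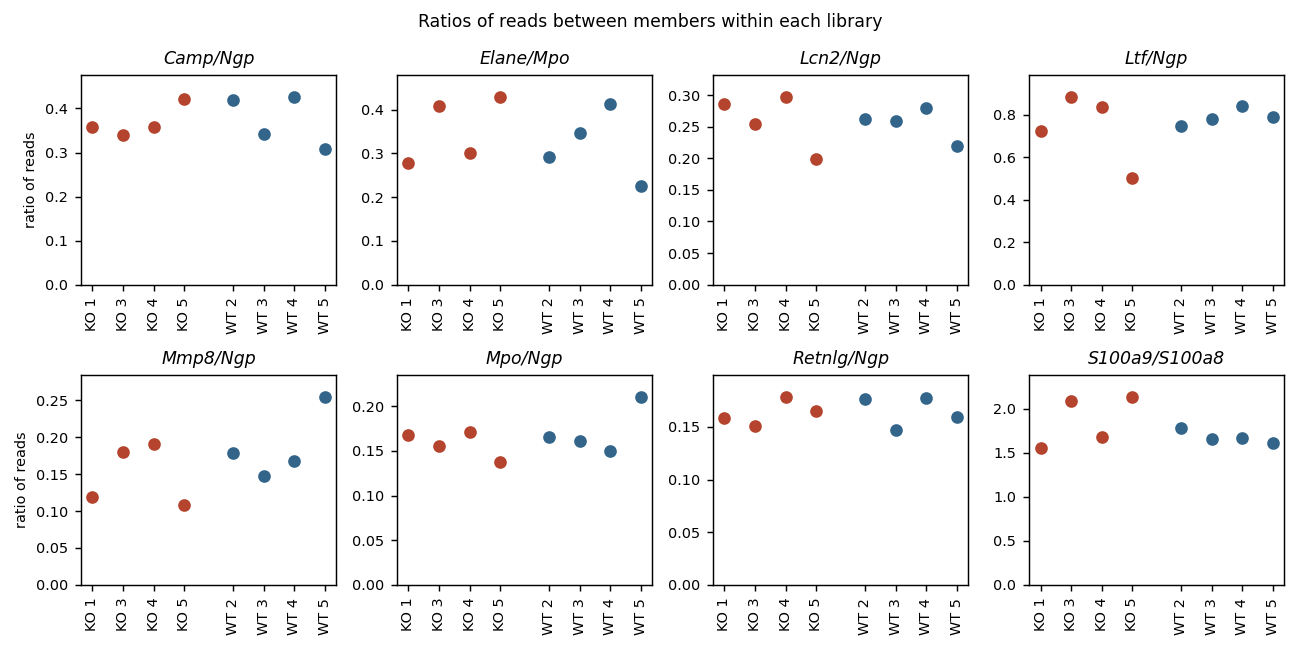
Ratio of reads between members (vertical axes from 0) in each KO library (red) and WT library (blue). The groups overlap in all 8 ratios, and KO 5 is lowest for Ltf over Ngp at 0.504, while WT 5 is highest for Mmp8 over Ngp at 0.254.

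In KO 5 the members did not all lie on the same side of their means. The same was seen in KO 3 and WT 2, which had 2 and 3 members above. KO 5 was above the mean for S100a8, S100a9, Camp, Ngp, Retnlg, Elane and Mpo, and below it for Ltf, Lcn2 and Mmp8. Of these, Mpo (0.068 in log2 units) and Lcn2 (-0.041) were nearly at the mean in KO 5. The level of Cxcr2, the chemokine receptor of mature neutrophils, was 0.728 CPM in KO 5, against 2.73 CPM in KO 1. It was as low in KO 4 (0.691 CPM) and WT 5 (0.565 CPM), and the gene had only 260 reads over the 8 libraries. Csf3r, the G-CSF receptor, was at 2.08 CPM in KO 5, against 4.16 CPM in KO 1, 3.41 CPM in KO 4 and 2.2 CPM in WT 5. Ly6g was at 0.936 CPM in KO 5 and 0.875 CPM in KO 1. The summed level of the 6 neutrophil-defining markers (Ly6g, Cxcr2, Csf3r, Mmp25, Padi4 and Cd177) was 21.6, 16, 10 and 10.4 CPM in KO 1, 3, 4 and 5, against 17.8, 20, 20.8 and 8.7 CPM in WT 2, 3, 4 and 5. All 6 markers had log2 fold changes below 0 (median -0.24) and 0 passed in edgeR, with Padi4 at -0.40 and Mmp25 at -0.35 having the smallest p. Their sum had r = 0.827 with the members' profile, but only 3 of the 6 had r over 0.7, with Csf3r at 0.424 and Padi4 at 0.387. KO 5 stood low in the sum although not in Ly6g, which had only 92 reads over the 8 libraries. These 6 genes are also counted in the wider lists described next.

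Other granule genes were read from lists of primary and of later granules. Of 8 further primary granule genes, 6 were tested, 3 higher and 3 lower in KO, and 0 passed at either threshold in edgeR. Prtn3, proteinase 3, was at 3.89 ± 1.45 CPM in KO and 3.73 ± 1.05 CPM in WT, and Ctsg, cathepsin G, at 1.70 ± 0.661 CPM in KO and 1.63 ± 0.826 CPM in WT (SD, n = 4 each). The smallest p values were those of Srgn and Ctsc, at log2 fold changes of 0.26 (SE 0.15) and -0.22 (SE 0.13), and both are expressed by many cell types. Of 25 further secondary and tertiary granule genes all were tested, 11 higher and 14 lower, with a median log2 fold change of -0.061. In edgeR 0 passed the adjusted threshold and 1, Mmp9, passed unadjusted, at 0.73 (SE 0.24, adjusted p = 0.210). Over all genes 15.7% passed unadjusted. Mmp9, gelatinase B, is also an osteoclast gene. Lyz2, a lysozyme of macrophages and neutrophils, was at 0.27 (SE 0.15). Of the 25, 15 had r over 0.7 with the members' profile over the 8 libraries. Cd177, a surface protein of neutrophils, was at 9.52, 4.82, 3.36 and 4.73 CPM in KO 1, 3, 4 and 5, against 5.09, 7.92, 8.26 and 3.33 CPM in WT 2, 3, 4 and 5. Stfa1, a stefin, was at 12.2 ± 6.12 CPM in KO and 11.9 ± 6.14 CPM in WT, and its count is uncertain because the stefin genes are near-identical copies.

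The summed level of neutrophil surface and signalling genes had r = 0.936 with the members' profile, while most attractants were below the filter. Of 24 surface and signalling genes 21 were tested, 8 higher and 13 lower in KO (median -0.075). In edgeR 0 passed the adjusted threshold, and unadjusted, where 15.7% of all genes passed, 1 passed in each direction. These were Il1r2, the decoy receptor of interleukin 1, at 9.61 ± 1.86 CPM in KO and 13.8 ± 2.37 CPM in WT (log2 fold change -0.53, SE 0.18, adjusted p = 0.209 in edgeR and 0.0164 in limma voom with sample quality weights), and G0s2, a lipolysis inhibitor, at 30 ± 7.11 CPM in KO and 21.8 ± 3.05 CPM in WT (0.46, SE 0.18, adjusted p = 0.259). In DESeq2 Il1r2 did not pass (adjusted p = 0.0981). Il1r2 had KO values below every WT value, and the groups did not overlap in 10.9% of all genes. Of 14 attractants and growth factors only Cxcl12 and Cxcl5 passed the low-count filter, at log2 fold changes of 0.21 (SE 0.13) and 0.46 (SE 0.36). Csf3, the growth factor of granulocytes, had 3 reads over all 8 libraries, Cxcl1 had 20 and Cxcl2 had 9, and Csf2 and Il17a had 0.

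Factors that drive granulocyte formation did not follow the members as a list. Of 10, 9 were tested, 7 higher and 2 lower in KO, with a median of 0.31 on the log2 scale. In edgeR 0 passed adjusted and 4 unadjusted, against 15.7% of all genes unadjusted. Cebpd was at 35.8 ± 15.6 CPM in KO and 18.7 ± 4.44 CPM in WT (log2 fold change 0.93, SE 0.26, adjusted p = 0.158 in edgeR, 0.031 in DESeq2 and 0.0324 in limma voom with sample quality weights), and Cebpb at 19.7 ± 7.87 CPM in KO and 12.6 ± 1.96 CPM in WT (0.65, SE 0.23, adjusted p = 0.230). Both are also expressed outside the marrow. Cebpe, which is needed for secondary granules, was at 1.67 ± 1.08 CPM in KO and 1.73 ± 0.820 CPM in WT and had r = 0.776 with the members' profile. Myb, a factor of immature blood cells, was at 14.8 ± 3.37 CPM in KO and 18.0 ± 6.23 CPM in WT, with r = 0.842.

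Among 15 partners, receptors and inhibitors of the granule proteins, 12 were higher and 3 lower in KO. In edgeR 0 passed adjusted and 5 passed unadjusted, against 15.7% of all genes unadjusted. The smallest p values were those of Serpina3n, a serine protease inhibitor, at 11 ± 4.75 CPM in KO and 2.61 ± 1.07 CPM in WT (log2 fold change 2.08, SE 0.36, adjusted p = 0.0727), and of Timp2, a metalloproteinase inhibitor, at 285 ± 32.7 CPM in KO and 185 ± 14.8 CPM in WT (0.62, SE 0.12, adjusted p = 0.0803). In both genes the groups did not overlap, as in 10.9% of all genes. Both passed in DESeq2 (adjusted p = 1.31e-05 for Serpina3n and 0.00013 for Timp2), where 464 of 16203 genes did. Slc22a17, a receptor of lipocalin 2, was at 96.5 ± 17.1 CPM in KO and 74.0 ± 5.15 CPM in WT, Timp1 at 57.9 ± 18.8 CPM in KO and 40.9 ± 2.17 CPM in WT, and Tlr4, a receptor of S100A8 and S100A9, at 4.27 ± 1.31 CPM in KO and 5.14 ± 1.20 CPM in WT. The members' own levels did not go with them: r with the profile was -0.39 for Serpina3n and -0.096 for Timp2.

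The genes most like the members were chosen by Pearson's r with the members' profile among 13442 protein-coding genes with a mean of at least 1 CPM, over 8 libraries and with no test. They were Parvg (r = 0.977), Ifitm6 (0.974), Hemgn (0.971), Rhd (0.970), Mbd2 (0.969), Plb1 (0.962), Epx (0.962), Ppp2r3c (0.957), Gm5483 (0.955) and Itgb2l (0.952). Spearman's rho lay between 0.881 and 0.976, and without WT 5 and KO 4, the 2 libraries farthest from the profile's median, r lay between 0.871 and 0.940. Ifitm6 belongs to the list of further secondary and tertiary granule genes described above. Hemgn and Rhd are genes of the red cell lineage, Epx encodes eosinophil peroxidase, and Parvg is a parvin of blood cells. Epx was at 16.2, 9.73, 6.49 and 13.2 CPM in KO 1, 3, 4 and 5, against 12.2, 21.7, 18.3 and 7.23 CPM in WT 2, 3, 4 and 5, in nearly the order of S100a9. Hemgn was at 7.001, 4.86, 3.27 and 6.55 CPM in the KO libraries, against 4.71, 8.21, 10.4 and 2.88 CPM in the WT libraries. Mbd2 and Ppp2r3c varied little, within 1.31 and 1.25 times over the 8 libraries.

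The summed levels of 4 marker lists of other blood and marrow cells had r from 0.659 to 0.922 with the members' profile. The macrophage and monocyte list (r = -0.147) and the T and NK cell list (r = -0.349), described below, did not move with it. The eosinophil, mast cell and basophil list (11 of 13 tested) summed to 125, 70.7, 60.6 and 148 CPM in KO 1, 3, 4 and 5, against 99.6, 183, 133 and 48.7 CPM in WT 2, 3, 4 and 5, so that KO 4 and WT 5 were again lowest. Its r with the members' profile was 0.922, although the mast cell genes Cma1 and Tpsb2, at log2 fold changes of 1.27 (SE 0.26, adjusted p = 0.0852 in edgeR) and 1.24 (SE 0.33, adjusted p = 0.141), had KO above WT in every library. Groups did not overlap in 10.9% of all genes. The B lineage list (12 of 12 tested) summed to 147 to 216 CPM in KO and 133 to 198 CPM in WT (r = 0.859), and it holds genes of B cell precursors in marrow, such as Rag1 (log2 fold change -0.60) and Vpreb1. Blnk of that list was at 0.23. The red cell list (14 of 15 tested, Ahsp not in the table) summed to 1530 to 4690 CPM in KO and 772 to 2120 CPM in WT (r = 0.659), with KO 5 highest. Its haemoglobin gene Hbb-bs was at 0.86 on the log2 fold scale (SE 0.37), and Klf1, a factor of red cell precursors, was at 2.86 ± 1.43 CPM in KO and 3.52 ± 1.86 CPM in WT. The platelet list (5 of 8 tested, Gp1bb with no read) summed to 13.4 to 25.4 CPM in KO and 15.5 to 25.1 CPM in WT (r = 0.854), with Pf4 at 0.43 and Ppbp at -0.65. By edgeR 0 genes of these 4 lists passed, while Cma1 and Tpsb2 passed in DESeq2 (adjusted p = 0.00207 and 0.0214), where 464 of 16203 genes did. In limma voom with sample quality weights Cma1 passed (adjusted p = 0.0147) and Tpsb2 did not (0.0865). The part of these 4 lists in the spread of the members was not tested.

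The summed levels of lists of other cells ranged from r = -0.694 to r = 0.894 with the members' profile. Macrophage and monocyte markers (15 of 15 tested) summed to 201 to 275 CPM in KO and 155 to 192 CPM in WT, with r = -0.147. Of them 14 were higher in KO, 0 passed the adjusted threshold in edgeR and 7 passed unadjusted, against 15.7% of all genes. Csf1r was at 0.39 (SE 0.10) and Cd68 at 0.48 (SE 0.13), and both passed in DESeq2 (adjusted p = 0.021 and 0.0386), where 464 of 16203 genes did. Osteoclast markers (7 of 8 tested) summed to 343 to 655 CPM in KO and 182 to 436 CPM in WT (r = 0.454), with Acp5 at 0.70 (SE 0.32) beside Mmp9, and 0 passed in edgeR. Oral keratinocyte markers (16 of 18 tested) summed to 866, 731, 801 and 1090 CPM in KO 1, 3, 4 and 5, against 1700, 1650, 901 and 1380 CPM in WT 2, 3, 4 and 5 (r = 0.014). All 16 were lower in KO and 2 (12.5%) passed in edgeR, against 0.0309% of all genes. Unadjusted, 12 passed, against 15.7% of all genes, and in 7 the groups did not overlap, against 10.9% of all genes. The 2 that passed were Spink5 (log2 fold change -2.33, SE 0.27, adjusted p = 0.0273) and Krt1 (-2.64, SE 0.36, adjusted p = 0.0396), while S100a8, S100a9, Lcn2 and Ltf, which epithelia can also express, did not pass. Spink5 lost its call in edgeR without KO 3, KO 4, WT 2 or WT 3 (adjusted p 0.0729 to 0.0907), at log2 fold changes of -2.46 to -2.23. Krt1 lost it without these or without KO 1 or KO 5 (0.0729 to 0.135), at -2.82 to -2.58, and with a stricter low-count filter (0.0523), at -2.64. T and NK cell markers (3 of 9 tested) summed to 5.41 to 5.72 CPM in KO and 3.68 to 6.12 CPM in WT, with Trac at 1.46 (SE 0.32, adjusted p = 0.101 in edgeR, 0.0234 in DESeq2 and 0.0164 in limma voom with sample quality weights) and Cd4 at -0.34. Of 8 salivary genes only Amy1 was tested (0.13), and the list summed to under 2 CPM in every library. The summed level of ameloblast markers had r = 0.894 with the profile and that of odontoblast markers r = -0.694. KO 4 and WT 5, lowest for the members, had the highest odontoblast sums, 80500 and 77000 CPM, and the lowest ameloblast sums, 59700 and 53400 CPM. Ambn (r = 0.897) alone was at 35800 ± 5590 CPM in KO and 38700 ± 12400 CPM in WT. Singly, 4 of the 8 ameloblast markers had r over 0.7 (median 0.636), with Amelx at 0.506 and Mmp20 at -0.383. The smallest p in these 2 lists were those of Amelx (0.56, SE 0.27), Slc24a4 (-0.32, SE 0.18), Col1a2 (0.49, SE 0.23) and Col1a1 (0.52, SE 0.27), and 0 passed in edgeR. In limma voom with sample quality weights Col1a2 (0.74, adjusted p = 0.0183) and Col1a1 (0.88, adjusted p = 0.0141) passed, where 1065 of 16205 genes did. Neither passed in DESeq2 (adjusted p = 0.208 for Col1a2 and 0.276 for Col1a1). Of the odontoblast list 2 genes were higher and 3 lower in KO, with Dspp at -0.068, Dmp1 at -0.034 and Phex at -0.16 in edgeR. The part of tissue makeup in the members' levels was not tested.

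**Figure D5:**
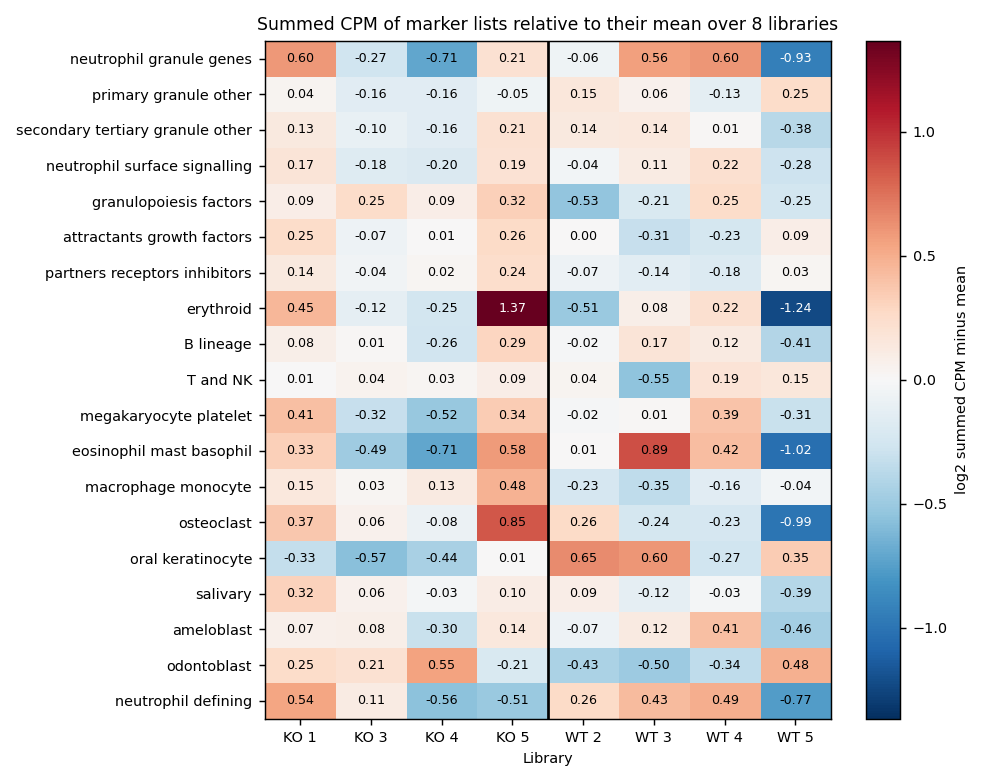
Summed CPM of each marker list (rows) in each library (columns, KO left and WT right of the line), as log2 difference from the mean over 8 libraries, with the values printed. The eosinophil, platelet, B lineage, red cell, ameloblast, osteoclast and salivary rows are below their mean in KO 4 and WT 5 like the neutrophil granule genes in the top row, the odontoblast row is high there, and the keratinocyte row is high in WT 2, 3 and 5.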

How the data were processed

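Gene counts were available for 4 KO and 4 WT libraries. The authors deposited raw counts of reads per Ensembl gene, from polyA-captured RNA per the labels' protocols, with gene lengths. CASAVA and mm39 are named in the submitters' processing notes, whereas gene positions in the table match GRCm38: 54409 of 54532 gene IDs were in GENCODE M21, 98.8% with the same start. How reads were aligned and counted, and with what strand setting, is not given in the sources used here. Just 1 gene overlapped a member, an antisense gene of Mpo with 0 reads.

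Genes were filtered with filterByExpr (minimum count 10, minimum total 15), scaled by TMM (factors 0.936 to 1.06) and tested with edgeR 4.0.16 (R 4.3.3; quasi-likelihood, robust), KO against WT, no covariate, threshold 0.05. Each SE was derived from the fold change and its F statistic. Log2 CPM used a prior count of 2. Alternatives were other scalings and filters, DESeq2 1.42.0, limma 3.58.1 voom with sample quality weights, each library left out, KO 1 and KO 5 left out, and a replicate block. The fit was tested on simulated data. The 2 most alike libraries differed by a chi-square of 12.3 per gene, so none was a duplicate. Promoters are from RefSeq (GRCm38.p6), and of those printed only that of Ltf reaches into the deposited gene, by 21 bases.

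The members and lists were chosen with earlier results of these data known. The naming rule took all members, Wdr72, from each list up to 4 genes past the threshold or else the 2 with the smallest p, defining markers near 0, and the 10 genes most like the members. Other list genes were named after their values were seen. The result for 1 gene that the rule names is not reported here.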

Additional observations from a re-analysis of the deposited data

How the results depend on the processing

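In all 18 alternatives 0 of 10 members passed an adjusted p of 0.05, and the lowest adjusted p of a member was 0.136 (Mmp8, limma voom with sample quality weights). Their median log2 fold change, KO minus WT, lay between -0.541 (without KO 1 and KO 5) and 0.0922 (without KO 4), and was -0.447 in limma voom with sample quality weights, a setting that changes both the method and the weight of each library. Over all genes, 5 were called, against 2 with library totals, 241 without a low-count filter, 1 with a stricter filter, 464 in DESeq2, 1065 in limma voom with sample quality weights, 11 without KO 1 and KO 5, and 0 to 55 with 1 library left out. Of 180 member values under alternatives, 25 changed sign, all with 1 library left out, where the log2 fold change ranged from -0.401 to 0.0661 for S100a9, -0.359 to 0.0836 for Mpo, -0.283 to 0.192 for Elane, -0.304 to 0.185 for Camp, -0.23 to 0.178 for Ngp, -0.413 to 0.0144 for Ltf, -0.365 to 0.148 for Lcn2 and -0.267 to 0.161 for Retnlg. S100a8 and Mmp8 stayed below 0 in all 18. Pf4 was at -0.104 without KO 1 and KO 5. Wdr72 passed in DESeq2 (-2.44), in limma voom with those weights (-2.62) and without KO 1 (-3.21, with 1 library left out -3.21 to -2.15). The correlation of deviations between KO and WT libraries of the same number was -0.143, -0.0923 and -0.121 for numbers 3, 4 and 5. Whether the numbers pair the libraries stays unknown, because differently numbered libraries were not compared. With a replicate block on those libraries 1 gene was called, Wdr72 was at -3.42 and the members' median at -0.337, and without the block 1 gene was called, Wdr72 was at -3.35 and the median at -0.425. The members' median within-group SD, with alternatives chosen after seeing the data, ranged from 0.483 (without WT 5) to 0.719 with 1 library left out. The cause of these shifts was not tested. Elane, with 24 to 94 reads a library, was limited most by depth.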
